A study of Homo sapiens with 4 samples.

Results

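The replication origin licensing factors are 10 genes, CDT1, GMNN, CDC6, ORC1 and the 6 subunits MCM2 to MCM7, chosen by name from the 43622 genes of the deposited expression table. All 10 were found in it, and all 10 passed the filter on low values; 19932 genes passed it in all. RNA-seq was done on PC3, an established human prostate cancer cell line, in 4 conditions with 3 libraries each. Ctrl was PC3 with the vehicle DMSO, MLN was PC3 with 1 µM MLN4924, shARF was PC3 carrying an shRNA against p14ARF (PC3-shp14ARF) with DMSO, and Both was PC3-shp14ARF with 1 µM MLN4924. All cells were harvested after 3 days of treatment. The shRNA was introduced with a retrovirus and the cells were kept as a hygromycin-selected population, and no control shRNA is named for the PC3 cells of Ctrl and MLN. The presence of the vector and the loss of p14ARF therefore cannot be told apart in comparisons between the lines. Nothing in the labels says whether the 3 libraries of a condition came from separate cultures, so p-values measure the spread between these libraries, which may be technical.

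Licensing is the step that makes a replication origin competent to fire. The origin recognition complex, of which ORC1 is the largest subunit, binds the origin, CDC6 joins it, and CDT1 brings in the MCM2 to MCM7 ring, which is loaded on DNA as an inactive helicase. Geminin, the product of GMNN, binds CDT1 and blocks further loading once S phase has begun. In S phase CDT1 protein is ubiquitinated by cullin-RING ligases, CRL4 with the receptor CDT2 (gene DTL) on PCNA, and CRL1 with SKP2. MLN4924 inhibits the enzyme that activates NEDD8, the ubiquitin-like modifier that cullins need, and is known to stabilise CDT1 protein and cause re-replication. p14ARF is a tumour suppressor encoded at CDKN2A. The values here are mRNA levels, and protein was not analysed here.

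Licensing genes are known as targets of E2F transcription factors, so the promoters were searched for E2F-like letters. RefSeq promoter windows of 300 bases (250 before the start and 50 after it, GRCh38.p14) were matched by symbol for 8 of the 10 genes (not MCM4 and MCM5). The motifs were TTCCCGC or TTCGCGC or TTGCCGC or TTGGCGC on either strand, and a match on one strand can overlap a match on the other. A match was found in all 8 matched genes, against 15.3% of 27305 genes. Some genes had more than 1 window, and 9 of their 11 windows held a match, against 13.0% of 35116 windows. In the 250 bases before the start, 7 of the 11 windows held one, against 10.9% of all windows. Those 250 bases held a match in 6 of the 8 genes (not CDC6 and MCM2). For each gene the match nearest a RefSeq window start is shown with 10 bases on either side, on the gene's strand. The shared letters of genes that moved differently can thus be compared. A window start is not always the GENCODE gene start given below. In GMNN, MCM3 and MCM7 the stretch with its flanks lies wholly inside the GENCODE span. The other GMNN window, close to the GENCODE start, held no match. Capitals mark the match.
CDT1: gggaaatttgGCGGGAAccgcgcccgc
CDC6: ccattcggatTTGGCGCgagcgcggct
GMNN: tgggtcggttTTGGCGCgctctcactt
ORC1: gccacgccgaTTGGCGCGAAgttttctttt
MCM2: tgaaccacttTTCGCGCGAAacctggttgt
MCM3: ttcggaagttTTCGCGCcggggtggag
MCM6: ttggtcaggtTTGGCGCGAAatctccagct
MCM7: ggggcgacgtTTCGCGCCAAtttcggttgg
In ORC1, MCM2, MCM6 and MCM7 overlapping matches on the 2 strands made 1 stretch of 10 letters, and in CDT1, CDC6, GMNN and MCM3 the stretch was 7 letters. The stretches lie at chr16:88803756-88803782 (CDT1), chr17:40287877-40287903 (CDC6), chr6:24775324-24775350 (GMNN), chr1:52404426-52404455 (ORC1), chr3:127598404-127598433 (MCM2), chr6:52284729-52284755 (MCM3), chr2:135876513-135876542 (MCM6) and chr7:100101386-100101415 (MCM7), flanks included.

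The 160 bases upstream of the start are shown for CDT1 and MCM6, the gene with the largest and the gene with the smallest log2 fold change in MLN vs Ctrl. Capitals mark E2F-like matches. CDT1 held 2 of them, and MCM6 held 2 stretches, each with a match on both strands.
CDT1: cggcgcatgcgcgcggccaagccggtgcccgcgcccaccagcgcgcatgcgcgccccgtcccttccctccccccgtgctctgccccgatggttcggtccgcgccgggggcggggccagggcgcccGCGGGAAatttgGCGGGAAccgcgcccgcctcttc
MCM6: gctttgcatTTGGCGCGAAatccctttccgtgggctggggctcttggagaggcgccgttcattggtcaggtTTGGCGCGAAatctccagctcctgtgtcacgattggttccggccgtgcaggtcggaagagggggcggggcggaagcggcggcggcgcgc
The CDT1 stretch is chr16:88803629-88803788 on the plus strand and the MCM6 stretch is chr2:135876444-135876603 on the minus strand. The CCAAT box was present in the windows of 6 of the 8 genes (not in those of CDT1 and MCM2), against 39.7% of all genes. The CHR element, TTTGAA or TTCGAA, was present in MCM6 alone among the 8, against 19.5% of all genes. A match in a window is a description of its letters and not a measured binding site.

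The libraries of each condition were alike. Pearson's r of log2(TPM + 0.1) between libraries of a condition was at least 0.9745, above the highest r with a library of another condition (0.9593), and no library stood apart. CDKN2A, the gene that encodes p14ARF and also p16INK4A, was at 177 to 190 TPM in Ctrl and 58.2 to 60.9 TPM in shARF, a log2 fold change of −1.63 (adjusted p = 2.2e-05, limma), and it was also lower in MLN (100 to 133 TPM). The gene-level value does not separate the 2 transcripts. All 4 epithelial markers (EPCAM, KRT8, KRT18 and CDH1) were above 1 TPM in every condition, and their summed level ranged from 371 to 414 TPM in Ctrl and from 634 to 727 TPM in shARF, and with drug from 271 to 303 TPM in MLN and from 230 to 244 TPM in Both. Of the immune markers, PTPRC and CD3E were at most 0.322 TPM, whereas CD68 was at 187, 545, 84.6 and 328 TPM on average in Ctrl, MLN, shARF and Both. Among stromal markers, PECAM1 averaged 11.7 TPM in Ctrl and 0.579 TPM in MLN, and of the fibroblast markers COL1A2 averaged 6.73 TPM in Ctrl and 54.5 TPM in shARF, COL1A1 went from 7.27 to 4.04 TPM and PDGFRB from 0.376 to 0.176 TPM, and DCN was at most 0.101 TPM on average in any group. The part of these shifts in the results below was not tested.

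The genes lie on 9 chromosomes of GRCh38. In the GENCODE annotation, CDT1 spans chr16:88803789-88809258 on the plus strand, GMNN chr6:24774931-24786099 on the plus strand, CDC6 chr17:40287879-40304657 on the plus strand and ORC1 chr1:52372829-52404423 on the minus strand. MCM2 spans chr3:127598410-127622436 (plus), MCM3 chr6:52264014-52284881 (minus), MCM4 chr8:47960185-47978160 (plus), MCM5 chr22:35400134-35425431 (plus), MCM6 chr2:135839626-135876443 (minus) and MCM7 chr7:100092233-100101940 (minus). Exons of MCM2 share 1113 bases with the antisense lncRNA ENSG00000285600, and exons of MCM7 share 392 bases with AP4M1 on the other strand. Since strandedness is not stated, reads in these stretches cannot be assigned to one strand.

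Licensing genes were at their lowest in untreated PC3 cells. Each of the 10 was lower in every Ctrl library than in any library of the other 3 conditions, which held for 9.53% of all genes tested. Beyond that the genes took different courses, which the plot of levels by library shows. Levels are TPM, which divides by transcript length and can be compared between genes, and libraries are given in the order of their numbers, which are 1, 2 and 3 for Ctrl, 1, 2 and 5 for MLN, 1, 3 and 5 for shARF, and 2, 3 and 4 for Both. In a culture, a larger share of cells in a cell cycle phase and more RNA per cell cannot be told apart.

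**Figure D1:**
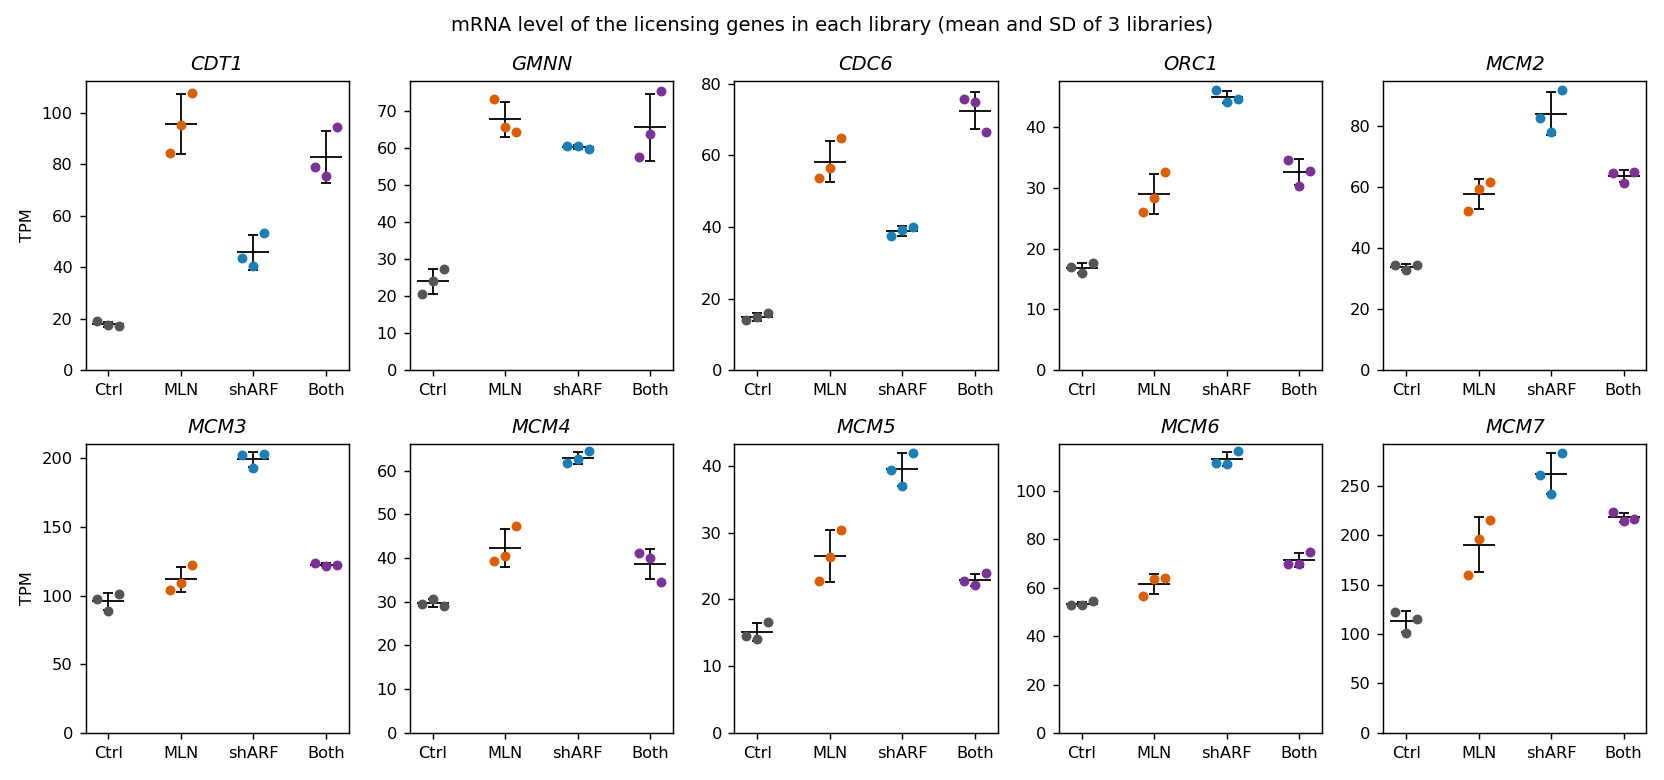
TPM of each of the 10 licensing genes (y axis, from 0, a different scale per panel) in the 12 libraries, grouped as Ctrl, MLN, shARF and Both (x axis). Points are libraries, and the black bar and whiskers are the mean and SD of 3 libraries. CDT1 and CDC6 are highest in the groups with MLN4924, whereas ORC1 and MCM2 to MCM7 are highest in shARF.

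CDT1, the factor that delivers the MCM ring, was at 19.0, 17.4 and 17.3 TPM in Ctrl and at 84.4, 95.1 and 108 TPM in MLN. It was at 43.6, 40.3 and 53.3 TPM in shARF and at 79.0, 75.3 and 94.4 TPM in Both. The Ctrl, shARF and drug-treated libraries formed 3 separate ranges, whereas MLN and Both overlapped.

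GMNN, which encodes the inhibitor of CDT1, was at 20.6, 24.2 and 27.4 TPM in Ctrl and at 73.2, 65.7 and 64.4 TPM in MLN. It was at 60.5, 60.6 and 59.7 TPM in shARF and at 57.7, 63.7 and 75.4 TPM in Both. The Both libraries reached below the lowest shARF library and above the highest MLN library, so that only Ctrl stood apart from Both.

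CDC6, the ATPase that joins the origin recognition complex, was at 13.9, 14.7 and 15.9 TPM in Ctrl and at 53.6, 56.5 and 64.8 TPM in MLN. It was at 37.4, 39.0 and 40.0 TPM in shARF and at 75.8, 75.0 and 66.4 TPM in Both. The 4 groups did not overlap, in the order Ctrl, shARF, MLN and Both.

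ORC1, the origin recognition subunit whose level varies most with the cell cycle, was at 17.0, 16.0 and 17.6 TPM in Ctrl and at 26.1, 28.4 and 32.6 TPM in MLN. It was at 46.1, 44.1 and 44.7 TPM in shARF and at 34.7, 30.4 and 32.9 TPM in Both. Unlike CDT1 and CDC6, it was highest in the untreated PC3-shp14ARF cells, and MLN and Both overlapped.

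The subunits of the MCM ring had the same order of levels in all 12 libraries, which was MCM7, MCM3, MCM6, MCM2, MCM4 and MCM5 from high to low. MCM7 was at 122, 101 and 115 TPM in Ctrl, at 160.0, 196 and 215 TPM in MLN, at 261, 242 and 283 TPM in shARF and at 223, 214 and 216 TPM in Both. MCM5, the lowest subunit, was at 14.6, 14.1 and 16.7 TPM in Ctrl, at 22.7, 26.3 and 30.4 TPM in MLN, at 39.4, 37.0 and 41.9 TPM in shARF and at 22.8, 22.1 and 23.9 TPM in Both. Both subunits were highest in every shARF library.

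MCM3 was at 97.5, 88.6 and 101 TPM in Ctrl, at 104, 109 and 122 TPM in MLN, at 202, 193 and 203 TPM in shARF and at 123, 122 and 122 TPM in Both. MCM6 was at 52.8, 52.9 and 54.5 TPM in Ctrl, at 56.7, 63.5 and 64.2 TPM in MLN, at 112, 111 and 116 TPM in shARF and at 69.9, 69.8 and 74.7 TPM in Both. In both subunits the MLN libraries lay just above those of Ctrl, and the shARF libraries far above all others.

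MCM2 was at 34.5, 32.9 and 34.3 TPM in Ctrl, at 52.1, 59.3 and 61.6 TPM in MLN, at 82.6, 78.0 and 91.9 TPM in shARF and at 64.7, 61.5 and 65.1 TPM in Both. MCM4 was at 29.5, 30.7 and 29.1 TPM in Ctrl, at 39.2, 40.5 and 47.3 TPM in MLN, at 61.7, 62.6 and 64.4 TPM in shARF and at 41.1, 40.1 and 34.6 TPM in Both. For all 6 subunits, and for ORC1, the lowest shARF library was above the highest library of any other condition, which held for 13.6% of all genes tested. MLN and Both overlapped for MCM2, MCM3, MCM4, MCM5 and MCM7, and for MCM6 every Both library was above every MLN library.

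The first comparison asks how MLN4924 changed licensing transcripts in PC3 cells. CDT1 rose by 2.41 on the log2 scale (5.31-fold), CDC6 by 1.96 (3.89-fold) and GMNN by 1.50 (2.82-fold), and the MCM subunits and ORC1 rose by at most 0.80. All 10 genes rose (limma, adjusted p below 0.05), against 32.2% of the 19932 genes tested that were higher in MLN, and in all 10 every MLN library was above every Ctrl library, as in 34.6% of all genes. CDT1, CDC6 and GMNN passed a log2 fold change of 1, as did 15.6% of all genes in that direction. The median of the 10 was 0.77, whereas the median of all genes was 0.05.

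CDT1 had a standard error of 0.097 and an adjusted p of 1.18e-05 (limma), and its mean went from 17.9 ± 0.935 TPM (SD, n = 3) to 95.8 ± 11.7 TPM. For CDC6 the standard error was 0.089 and the adjusted p 1.67e-05, and the mean went from 14.9 ± 1.00 to 58.3 ± 5.81 TPM. For GMNN they were 0.11 and 9.47e-05, and the mean went from 24.1 ± 3.37 to 67.8 ± 4.76 TPM. CDT1 and CDC6 act in loading and GMNN encodes the inhibitor. ORC1, which also acts in loading, rose by 0.78, less than the helicase subunit MCM5 at 0.80.

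MCM5 rose by 0.80 (SE 0.12, adjusted p = 0.00188), ORC1 by 0.78 (SE 0.092, adjusted p = 0.000616), MCM2 by 0.76 (SE 0.072, adjusted p = 0.000238) and MCM7 by 0.75 (SE 0.13, adjusted p = 0.0029). MCM4 rose by 0.50 (SE 0.079, adjusted p = 0.00206). MCM3, at 0.22 (SE 0.079, adjusted p = 0.0483), and MCM6, at 0.20 (SE 0.059, adjusted p = 0.0263), were close to the threshold. Both calls were lost without any 1 of the 3 Ctrl libraries and without library 2 or 5 of MLN, with adjusted p of up to 0.136 for MCM3 and 0.0841 for MCM6.

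The same comparison in PC3-shp14ARF cells gave a split among the licensing genes. CDC6 rose by 0.89 and CDT1 by 0.86 on the log2 scale, whereas all 6 MCM subunits and ORC1 fell. GMNN was at 0.11 and did not pass the test. Thus 2 of the 10 genes rose, against 28.3% of all genes tested that were higher in Both than in shARF, and 7 fell, against 32.8% that were lower. The median of the 10 was −0.43, and the median of all genes was −0.04.

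CDC6 went from 38.8 ± 1.31 to 72.4 ± 5.17 TPM (SE of the log2 fold change 0.062, adjusted p = 7.16e-05, limma), and CDT1 from 45.7 ± 6.77 to 82.9 ± 10.2 TPM (SE 0.13, adjusted p = 0.00194). GMNN went from 60.2 ± 0.485 to 65.6 ± 8.99 TPM (SE 0.097, adjusted p = 0.353). In the helicase the fall was −0.78 for MCM5 (SE 0.059, adjusted p = 0.000101), −0.71 for MCM4 (SE 0.072, adjusted p = 0.00033), −0.70 for MCM3 (SE 0.034, adjusted p = 2e-05) and −0.66 for MCM6 (SE 0.042, adjusted p = 5.08e-05). ORC1 followed with −0.46 (SE 0.057, adjusted p = 0.000753), then MCM2 with −0.40 (SE 0.067, adjusted p = 0.00291) and MCM7 with −0.26 (SE 0.064, adjusted p = 0.0134). In all 7 genes that fell, every Both library was below every shARF library, as in 36.5% of all genes, while in CDC6 and CDT1 every Both library was above, as in 30.6% of all genes. The call for MCM7 was lost without the filter on low values (adjusted p = 0.0503).

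**Figure D2:**
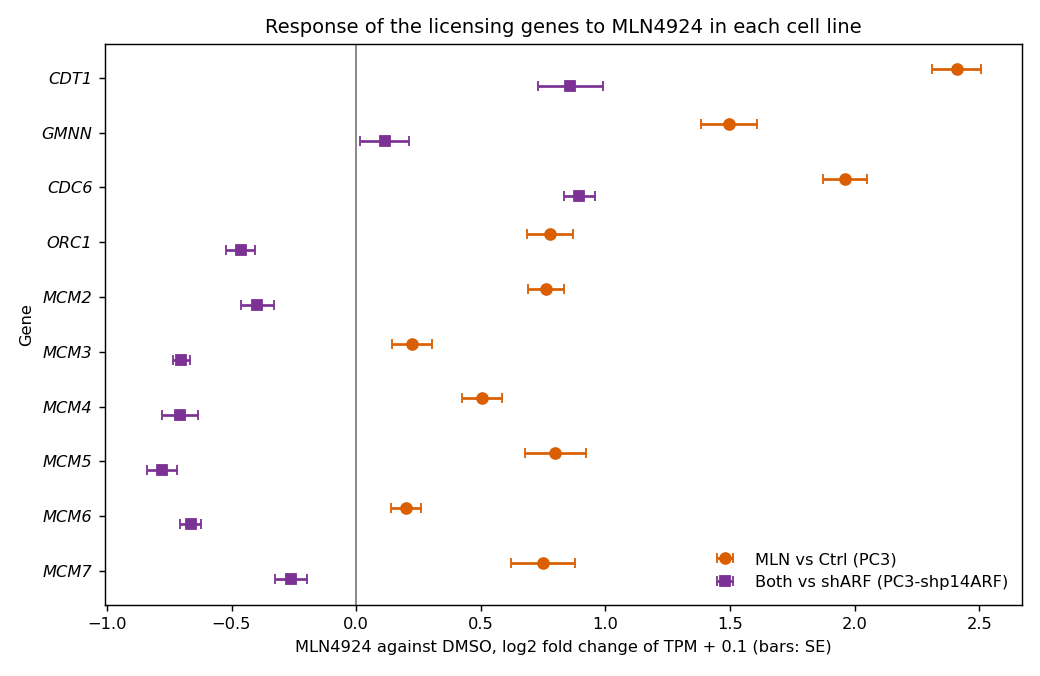
Log2 fold change of TPM + 0.1 with MLN4924 (x axis) for each licensing gene (y axis), in PC3 cells (circles, MLN vs Ctrl) and in PC3-shp14ARF cells (squares, Both vs shARF). Bars are standard errors from limma. All circles are above 0, from 0.20 for MCM6 to 2.41 for CDT1, whereas the squares run from −0.78 for MCM5 to 0.89 for CDC6.

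The response to MLN4924 was lower in PC3-shp14ARF than in PC3 cells for every licensing gene. The interaction, the response in PC3-shp14ARF minus that in PC3, was negative and passed the test in 10 of 10 genes, against 17.1% of all genes tested. It passed −1 on the log2 scale in 8 of the 10, against 4.95% of all genes. The median of the 10 was −1.18 and that of all genes −0.09. The interaction is also the difference between the lines with drug minus that without drug. The median of the 10 was 0.14 in Both vs MLN and 1.32 in shARF vs Ctrl.

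MCM5 and CDT1 had the largest differences, −1.58 (adjusted p = 1.03e-05, limma) and −1.55 (SE 0.17, adjusted p = 4.05e-05). GMNN had −1.38 (adjusted p = 4.94e-05), ORC1 −1.24 (adjusted p = 1.23e-05), MCM4 −1.21 (adjusted p = 1.31e-05) and MCM2 −1.16 (adjusted p = 1.02e-05). CDC6 had −1.07 (adjusted p = 3.81e-05), MCM7 −1.01 (adjusted p = 0.000359), MCM3 −0.93 (adjusted p = 2.26e-05) and MCM6 −0.86 (adjusted p = 1.28e-05). For ORC1 and the MCM subunits the responses had opposite signs in the 2 lines. For CDT1 and CDC6 both responses were positive and differed in size. The epithelial markers were also negative in the interaction, in 4 of 4, against 17.1% of all genes. Unlike the licensing genes in PC3, 3 of 4 fell in MLN vs Ctrl, against 29.4% of all genes. All 4 of these markers fell in Both vs shARF, against 32.8% of all genes. Their part in the result was not tested.

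Without drug, PC3-shp14ARF cells had more of every licensing transcript than PC3 cells. All 10 genes were higher in shARF than in Ctrl, against 21% of all genes tested, and all 10 passed a log2 fold change of 1, against 3.87% of all genes. The log2 fold changes lay in a narrow band, from 1.06 for MCM3 to 1.41 for ORC1, with a median of 1.32 where all genes had a median of 0. The levels went from 16.9 ± 0.829 to 45.0 ± 1.03 TPM for ORC1 (SE 0.044, adjusted p = 5.95e-05, limma) and from 53.4 ± 0.933 to 113 ± 2.88 TPM for MCM6 (log2 fold change 1.08, SE 0.027, adjusted p = 3.85e-05). CDT1 was higher by 1.34 (adjusted p = 0.000825), GMNN by 1.33, CDC6 by 1.38, MCM5 by 1.38, MCM2 by 1.31, MCM7 by 1.22 and MCM4 by 1.08. This comparison uses the same shARF and Ctrl libraries as the 2 drug comparisons and the interaction, so its values are not independent of theirs.

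With drug in both lines, few licensing genes differed. CDC6 was higher in Both than in MLN by 0.31 (SE 0.091, adjusted p = 0.0442, limma) and MCM6 by 0.22 (SE 0.065, adjusted p = 0.0487), which is 2 of 10 genes against 11.8% of all genes tested. Neither call was firm. The CDC6 call was lost without library 1 or 2 of MLN and without library 2 or 3 of Both, and the MCM6 call without any 1 of the 6 libraries, with adjusted p of up to 0.138 and 0.121. The other 8 genes did not pass, with log2 fold changes from −0.21 for CDT1 (95% interval −0.51 to 0.09) to 0.21 for MCM7 (−0.07 to 0.48). For GMNN the value was −0.05 (−0.32 to 0.22), and for MCM5 −0.20 (−0.47 to 0.07). Differences within these intervals cannot be told from no difference with 3 libraries a group.

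Ratios among the licensing transcripts separated the treated from the untreated libraries in both lines. They are given as a description, without a test. CDT1 was below GMNN in every untreated library, at a ratio of 0.632 to 0.919 in Ctrl and 0.666 to 0.894 in shARF. CDT1 was above GMNN in every treated library, at 1.15 to 1.67 in MLN and 1.18 to 1.37 in Both. CDC6 was likewise below ORC1 without drug, with a mean ratio of 0.883 ± 0.0538 in Ctrl and 0.864 ± 0.0454 in shARF, and at 2.01 ± 0.0357 in MLN and 2.22 ± 0.227 in Both.

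The summed MCM2 to MCM7 level was 341 ± 17.7 TPM in Ctrl and 761 ± 38.5 TPM in shARF without drug, and 490 ± 53.0 TPM in MLN and 537 ± 7.81 TPM in Both with it. CDT1, CDC6 and ORC1 together were 14.6 ± 0.413% of that sum in Ctrl and 17.0 ± 0.248% in shARF. With MLN4924 they were 37.3 ± 0.833% in MLN and 35.0 ± 1.01% in Both. CDT1 and CDC6 were higher with drug in both lines. ORC1 averaged 16.9 TPM in Ctrl and 29.0 TPM in MLN, but 45.0 TPM in shARF and 32.6 TPM in Both. The ring's own makeup shifted less. Of the MCM sum, MCM7 made up 33.1 ± 1.64% in Ctrl and 34.4 ± 0.985% in shARF, and 38.7 ± 1.70% in MLN and 40.6 ± 0.339% in Both. MCM3 made up 28.1 ± 0.637% in Ctrl and 26.2 ± 0.770% in shARF, and 22.9 ± 0.990% in MLN and 22.8 ± 0.167% in Both.

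**Figure D3:**
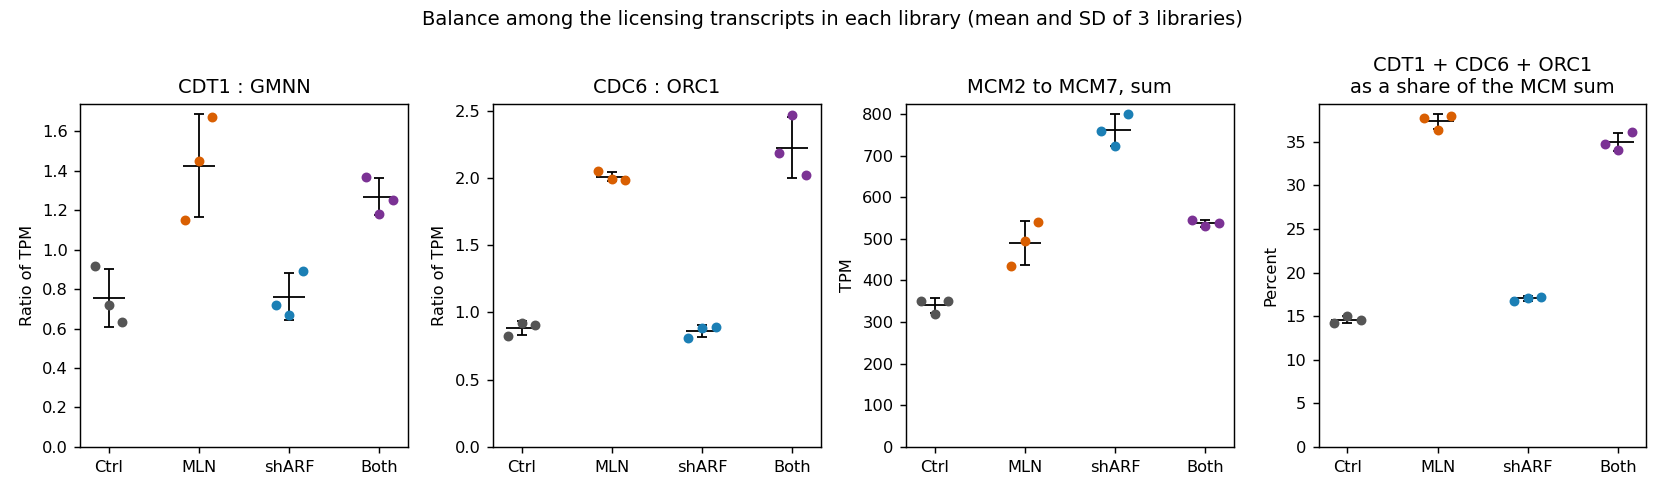
Ratio of CDT1 to GMNN TPM, ratio of CDC6 to ORC1 TPM, summed TPM of MCM2 to MCM7, and CDT1, CDC6 and ORC1 together as a percent of that sum (y axes, all from 0) in the 12 libraries by group (x axis). Points are libraries and bars are the mean and SD of 3. Both ratios and the percent separate MLN and Both from Ctrl and shARF, whereas the MCM sum is highest in shARF, at 761 TPM on average.

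Levels were correlated on the log2 scale over the 12 libraries. Among CDT1, CDC6 and GMNN, Pearson's r was 0.915 to 0.963. Among ORC1 and the 6 MCM subunits it ran from 0.834 (MCM3 with MCM7) to 0.991 (ORC1 with MCM2). Between a gene of the first set and a gene of the other it ran from 0.212 (CDT1 with MCM3) to 0.828 (GMNN with MCM2), so that the ranges nearly met. These correlations describe 12 libraries that share their treatment and line in sets of 3. Of the 9320 genes that averaged 10 TPM or more, the 5 most like CDT1 over the libraries were TUBB2A (r = 0.992), E2F1 (0.992), IRF1 (0.990), TAP1 (0.990) and TRAIP (0.989). E2F1 averaged 31.2, 149, 72.4 and 149 TPM in Ctrl, MLN, shARF and Both. Among the 5 most like GMNN were ENY2 (0.974), PSMB8 (0.970), PCMT1 (0.965) and PSMB9 (0.963), and the 5 most like the mean of the MCM subunits were RAB34 (0.981), METTL1 (0.970), UQCC3 (0.970), TXNIP (0.969) and KHDC1 (0.968).

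Other genes around licensing were counted to place the members. Over all genes tested, 32.2% rose and 29.4% fell in MLN vs Ctrl, 28.3% rose and 32.8% fell in Both vs shARF, 21% were higher in shARF than in Ctrl, and 17.1% were negative in the interaction. Of the 6 other origin recognition genes (ORC2 to ORC6 and the partner LRWD1), 2 rose and 3 fell in MLN vs Ctrl. Only 2 fell without library 3 of Ctrl or library 2 or 5 of MLN. ORC6, the smallest subunit, rose by 1.71 (23.8 ± 2.78 to 77.8 ± 2.41 TPM), ORC5 fell with −0.82, and ORC4 was at −0.04 and did not pass. In Both vs shARF 2 rose, ORC6 most at 1.00, and 2 fell, ORC5 most at −0.78. The smaller fall, of ORC2, rested on single libraries, since 1 fall was left without any 1 of the shARF libraries or without library 2 of Both. In shARF vs Ctrl 4 rose, led by ORC6 at 0.84, and 2 rose without library 1 or 2 of Ctrl. In the interaction ORC6 alone passed, at −0.71.

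The MCM relatives comprised MCM8 and MCM9, which act in recombination, MCM10, a replisome factor, and MCMBP, a binding partner of the ring. MCM8 rose by 1.48 in MLN vs Ctrl, where 2 of the 4 rose, against 32.2% of all genes. It rose by 0.88 in Both vs shARF, where 2 of the 4 rose, against 28.3% of all genes. MCMBP fell in Both vs shARF with −0.58, in the same direction as the ring. All 4 were higher in shARF than in Ctrl, against 21% of all genes, from 0.40 for MCMBP to 0.97 for MCM10. Negative in the interaction were 3 of 4, against 17.1% of all genes, led by MCM10 at −0.83.

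Origin firing genes, which convert the loaded ring into an active helicase, comprised 13 genes (CDC7, DBF4, DBF4B, CDC45, GINS1 to GINS4, TICRR, MTBP, TOPBP1, RECQL4 and DONSON). In PC3 cells 12 of them rose with MLN4924, against 32.2% of all genes, with a median of 1.09 and DONSON highest at 1.92. That count was 11 without library 1 or 2 of Ctrl or library 1 or 5 of MLN. It was 9 with the replicate number as a block. MTBP, named after its value was seen, had −0.27 and did not pass. In PC3-shp14ARF cells 9 rose, against 28.3% of all genes, again led by DONSON at 1.49, and DBF4 and GINS2 fell with −0.17 each. Both falls were lost without any 1 of the shARF libraries or without library 4 of Both, and 1 was lost without library 2 or 3 of Both. In shARF vs Ctrl 11 rose, against 21% of all genes, GINS2 most at 1.69. In the interaction 8 of 13 were negative, against 17.1% of all genes, GINS2 most at −1.30. The count was 4 with the replicate number as a block.

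The 8 S-phase genes (TYMS, RRM1, RRM2, POLA1, PRIM1, FEN1, CCNE1 and CCNE2) were counted likewise. In MLN vs Ctrl 7 rose, against 32.2% of all genes, led by the cyclin gene CCNE2 at 3.12, and POLA1, a subunit of DNA polymerase alpha, had −0.68. In Both vs shARF 6 rose, against 28.3% of all genes, led by CCNE2 at 2.49, and POLA1 fell with −0.70. In shARF vs Ctrl 7 rose, against 21% of all genes, led by thymidylate synthase TYMS at 1.35. In the interaction 6 of 8 were negative, against 17.1% of all genes, led by TYMS at −1.20.

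Genes that act in CDT1 turnover (DTL, DDB1, CUL4A, CUL4B, RBX1, SKP2, SKP1, CUL1, CKS1B, PCNA and FBXO31) went both ways. In MLN vs Ctrl 4 of 11 rose, a share near the 32.2% of all genes that rose, and 5 fell, against 29.4% of all genes. DTL, the receptor that recognises CDT1 on PCNA, rose by 1.89 (22.4 ± 1.09 to 83.8 ± 10.3 TPM), and DDB1, its adaptor, had −0.69. In Both vs shARF 3 rose, a share near the 28.3% of all genes, led by DTL at 0.82, and 7 fell, against 32.8% of all genes, led by DDB1 at −0.76. In shARF vs Ctrl 7 rose, against 21% of all genes, DTL most at 1.29, and 5 rose without library 1 or 5 of shARF. In the interaction 6 were negative, against 17.1% of all genes, PCNA, the sliding clamp, most at −1.13. That count was 4 to 6 with 1 library left out and 3 without the filter on low values.

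The other CRL4-CDT2 substrates were CDKN1A, KMT5A and TDG, and all 3 rose in each drug comparison. Over all genes, 32.2% rose in MLN vs Ctrl and 28.3% in Both vs shARF. CDKN1A, the gene of the cyclin-dependent kinase inhibitor p21, had an interaction of the opposite sign to the 10 licensing genes. It rose by 1.60 in MLN vs Ctrl (113 ± 9.41 to 344 ± 47.6 TPM) and by 4.04 in Both vs shARF (12.2 ± 0.824 to 202 ± 18.3 TPM), with an interaction of 2.44 (adjusted p = 4.2e-07, limma), where 11.2% of all genes were higher. It was lower in shARF than in Ctrl, with −3.20, where 20.4% of all genes were lower. KMT5A, a histone methyltransferase gene, rose by 0.82 in MLN vs Ctrl, by 0.42 in Both vs shARF and by 0.56 in shARF vs Ctrl, and its interaction was −0.40.

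Among the 4 genes of APC/C and cyclin F, which act in geminin and CDC6 turnover (FZR1, CDC20, FBXO5 and CCNF), CDC20 fell most. CDC20, an activator of the APC/C in mitosis, had −1.02 in MLN vs Ctrl (163 ± 7.26 to 80.6 ± 8.71 TPM) and −2.15 in Both vs shARF (209 ± 6.73 to 47.2 ± 2.38 TPM), with an interaction of −1.13. In MLN vs Ctrl 2 of 4 rose, against 32.2% of all genes, FZR1 most at 0.42. The FZR1 call was lost without library 2 or 3 of Ctrl and without library 2 or 5 of MLN. In Both vs shARF 3 of 4 fell, against 32.8% of all genes, and 2 fell without library 1 or 5 of shARF or library 2 of Both. In shARF vs Ctrl 3 rose, against 21% of all genes, CCNF most at 0.53. In the interaction 3 of 4 were negative, against 17.1% of all genes, and the FZR1 call there was lost under 13 of 19 alternatives.

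With drug in both lines, few genes of these lists differed in a way that held without each library in turn. Of these, 6 were higher in Both than in MLN, which were ORC3 by 0.84, POLA1 by 0.74, GINS1 by 0.55, RRM2 by 0.48, TOPBP1 by 0.41 and PRIM1 by 0.32. The other 3 were lower in Both, CDC20 at −0.77, CDKN1A at −0.76 and FBXO31, a further ligase receptor for CDT1, at −0.44. In the main fit, without that rule, 11.8% of all genes were higher and 20.6% lower. There 5 of 13 origin firing, 4 of 8 S-phase and 1 of 6 other origin recognition genes were higher. Lower were 2 of 4 APC/C and cyclin F genes, 1 of 3 CRL4-CDT2 substrates and 1 of 11 CDT1 turnover genes. Origin firing, S-phase and other origin recognition genes had 1 lower each. RRM2, TOPBP1 and PRIM1 were named after their values were seen. No MCM relative passed in this comparison by limma, and 1, MCM9, had an unadjusted p below 0.05 (0.0335).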

How the data were processed

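RNA-seq of 12 libraries (4 conditions, 3 libraries each) was analysed. Reads were adapter-trimmed by the authors, aligned to hg38 and quantified against Ensembl gene models with CLC Genomics Workbench. The deposited table gives TPM for 43622 genes without a filter on low values, and each library sums to 1000000 TPM. Depth per library is unknown, so no interval that needs it is given, and TPM is a share, so a rise of abundant genes lowers the others. Read layout and strandedness are not stated.

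The 19932 genes that averaged 0.1 TPM or more were put on the scale log2(TPM + 0.1) and fitted with limma 3.58.1 (lmFit, eBayes with trend) in R 4.3.3, each pairwise comparison on its 6 libraries and the interaction on 12, and p-values were adjusted by Benjamini-Hochberg over these genes. A call is an adjusted p below 0.05, and fold changes understate those of low genes. The fits were tested on simulated data. Named are the 10 members, CDKN2A, the called gene with the highest or lowest fold change of each wider list and unchanged partners in a complex, and the 5 genes closest to each pattern by Pearson's r; a few pattern and marker genes are not reported here. Members and lists were chosen with earlier results of these data known. Alternatives were the pseudocount, the filter, median-of-ratios scaling, no trend, 1 fit over all 12 libraries, the replicate number as a block, and each library left out. Whether the replicate numbers pair the libraries is not stated. Deviations of same-numbered libraries from their group means correlated between −0.046 and 0.022 over 10 pairs. These values show no large shared effect, but differently numbered pairs were not computed, so pairing is not excluded. Promoters came from RefSeq on GRCh38.p14 and positions from GENCODE, another release than the authors' annotation. Python 3.11.15 with pandas 2.3.3 and numpy 2.4.6 was used.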

Additional observations from a re-analysis of the deposited data

Results flagged for a closer look

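The response to MLN4924 differed between PC3-shp14ARF and PC3 cells for all 10 licensing genes, by the test of the difference itself (limma, interaction over 12 libraries). The difference on the log2 scale, PC3-shp14ARF minus PC3, was −1.55 for CDT1, −1.38 for GMNN, −1.07 for CDC6 and −1.24 for ORC1. It was −1.16 for MCM2, −0.93 for MCM3, −1.21 for MCM4, −1.58 for MCM5, −0.86 for MCM6 and −1.01 for MCM7. Groups of 3 libraries were too small for a check of single libraries that lie far from their group.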

How the results depend on the processing

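Over 50 pairs of a member and a comparison, 730 alternative values were computed, of which 680 kept their direction and side of the threshold, 44 lost the call, 3 gained one and 3 changed sign. The interaction was called in all 10 genes under all 19 alternatives. With the replicate number as a block, which uses only the 2 numbers that both groups share, the count of members called higher was 6 in MLN vs Ctrl (10 without it) and 0 in shARF vs Ctrl (10 without it, with adjusted p of 0.0607 to 0.0706 under the block, and 10 at an unadjusted p below 0.05 by limma). No paired analysis was possible for Both vs shARF and Both vs MLN because their groups share 1 number. In Both vs MLN the 2 members called higher became 0 without the filter, 4 with median-of-ratios scaling and 0 without the trend, and 0 to 2 with 1 library left out. Where that count was 0, 1 to 3 members had an unadjusted p below 0.05. GMNN in Both vs MLN changed sign to 0.038 with that scaling, to 0.003 without library 1 of MLN and to 0.034 without library 2 of Both (−0.158 to 0.034 over the libraries left out). The scaling factors shifted log2 fold changes by at most 0.099, in the interaction, where the median of all genes went from −0.0854 to 0.0072. MCM3 in MLN vs Ctrl lost its call under 9 of 14 alternatives and MCM6 under 8 of 14. The causes were not tested. The same settings were applied to the wider lists after the data had been seen, and no called gene of them changed sign. None was called in shARF vs Ctrl under the block. With it, origin firing genes went from 12 to 9 higher in MLN vs Ctrl and from 8 to 4 negative in the interaction. Without depth, the precision of single values is known only from 3 libraries a group.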
